A study of Mus musculus with 8 samples.

Results

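The constitutive proteasome is described here through 31 genes, the subunits of the 20S core and of the 19S regulatory particle that the list names. All 31 were measured, of 19938 genes fitted, and each is represented by its probe set with the highest mean signal. They comprise 7 alpha ring genes (Psma1 to Psma7), 7 beta ring genes (Psmb1 to Psmb7), 6 ATPase genes (Psmc1 to Psmc6) and 11 non-ATPase genes (Psmd1, Psmd2, Psmd3, Psmd4, Psmd6, Psmd7, Psmd8, Psmd11, Psmd12, Psmd13 and Psmd14). A gene belongs to the list by its identity as a subunit.

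The tissue was retina of male C57BL/6 mice, aged 6 weeks at the start, that received MPTP, a toxin whose metabolite blocks complex I of the mitochondrial respiratory chain in cells that take it up, or saline. The groups were MPTP at 4 weeks (28 days), saline at 4 weeks, MPTP at 1 week (7 days) and saline at 1 week, with 6 mice in each. Every group has 2 arrays, each with RNA pooled from 4 retinas, and no label ties a pool to separate mice, so p-values measure only the spread between these arrays. The question named in the study's title is how retinal genes are regulated in the short and in the long term.

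The proteasome is the main protease of the cytosol and nucleus, and it degrades proteins that carry ubiquitin chains. Its core is a barrel of stacked rings, in which the outer alpha rings gate the entry and the inner beta rings hold the proteolytic sites. The regulatory particle caps the barrel: its ATPase ring unfolds substrates and threads them into the core, and its non-ATPase subunits bind ubiquitin chains, cut them off and hold the cap together. Mammalian cells with an inhibited proteasome are known to raise most subunit genes together through the transcription factor Nfe2l1 (NRF1), which binds antioxidant response elements, and in retina photoreceptors are known for a high turnover of protein.

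Because subunit genes are known to be switched on jointly through such elements, promoters were read for the core letters TGACNNNGC and for the CCAAT box, on both strands, from 250 bases before to 50 bases after the transcription start. The sequences and positions are from RefSeq on GRCm38.p6, and 25 of the 31 subunits have an entry. TGACNNNGC was found in 4 of these 25 (16%), Psmb5, Psmb6, Psmc6 and Psmd12, against 13.99% of 27025 genes. CCAAT was found in 10 of the 25 (40%), against 41.1% of all genes. Neither share is far from that of all genes, and a match is a description of the letters, not a site. The stretches around the 4 matches to TGACNNNGC are shown 5′ to 3′ on the strand of the gene, with the match in capitals. In Psmb6, the caspase-like catalytic subunit (chr11:70525322-70525382, plus strand), the match begins 9 bases before the start, and in Psmb5, the chymotrypsin-like catalytic subunit (chr14:54618008-54618068, minus strand), 47 bases before it. In the ATPase gene Psmc6 (chr14:45329574-45329631, plus strand) and in the lid subunit gene Psmd12 (chr11:107479278-107479315, plus strand) the match lies on the opposite strand (its reverse complement is in capitals) and begins 227 and 247 bases before the start.
Psmb6: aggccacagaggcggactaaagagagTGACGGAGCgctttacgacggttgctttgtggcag
Psmb5: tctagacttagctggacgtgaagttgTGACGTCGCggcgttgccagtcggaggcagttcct
Psmc6: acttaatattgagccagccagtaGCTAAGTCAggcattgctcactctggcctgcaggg
Psmd12: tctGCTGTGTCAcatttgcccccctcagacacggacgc

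The values are log2 signals, so a difference of 1 is a doubling, and each probe set has its own response, so percentiles of mean signal say only how bright a probe set is, not which gene has more RNA. Defining rod genes were among the brightest, with Gnat1 at percentile 100 and Sag at percentile 99.96 of the mean signal of all genes, and all 8 photoreceptor markers measured were above percentile 75. Along the first principal component, with 38.3% of the variance, saline 1 week array 2 and MPTP 1 week array 1 stood apart at scores of 15.7 and 19.1, against -9.39 to -0.39 in the other arrays. Of the other tissues, the 12 lens markers had the highest mean signal in MPTP 1 week array 2 (8.08, against 7.06 to 7.73 in the other arrays), and so had the 10 pigment epithelium markers (7.92, against 7.31 to 7.70). The 7 microglia markers were dim in all arrays, with means of 6.12 to 6.31 and none above percentile 50. Of the retinal cell types, the 5 amacrine markers had lower means in the 4 MPTP arrays (8.64 to 8.688) than in the 4 saline arrays (8.694 to 8.77). The 4 Mueller glia markers had means of 9.32 and 9.18 in MPTP arrays at 4 weeks, against 9.36 and 9.30 in saline arrays, and of 9.25 and 9.23 in MPTP arrays at 1 week, against 9.36 and 9.43 in saline arrays. They overlapped at 4 weeks and were lower in MPTP at 1 week. The 4 bipolar markers had lower means in MPTP arrays at 4 weeks (8.89 and 8.99) than in saline arrays (9.01 and 9.01). The 5 ganglion markers had higher means in MPTP arrays at 4 weeks (8.67 and 8.65) than in saline arrays (8.64 and 8.62). Both lists overlapped at 1 week, and the 8 photoreceptor markers overlapped at both times. The part of these differences in the results below was not tested.

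The probe sets of the subunits were bright. Their mean signals lay between percentile 56.0 (Psmd13) and percentile 99.5 (Psma3), with a median at percentile 92.1. All 31 were above percentile 50, and 29 were above percentile 75, with Psmd3 and Psmd13 below it. Since bright genes as a group shifted between arrays, the 4985 genes above percentile 75 are given below as a second background beside all genes.

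The subunits had slightly higher signal in MPTP than in saline retinas at both times, by small amounts, and the alpha ring was the class in which every member did. At 4 weeks 25 of the 31 subunits were above 0, with a median log2 fold change of 0.06, and at 1 week 25 were above 0, with a median of 0.11. No subunit passed the adjusted threshold in any comparison, so no single subunit can be called different. Such a miss does not show that the subunits were unaffected. In bulk retina, less RNA per cell and fewer cells of a type cannot be told apart.

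By limma with Benjamini-Hochberg adjustment over all genes, 0 of 19938 genes (0%) passed at 0.05 at either time or over both times, and the adjusted p of every subunit was 0.973 or higher in these comparisons. At 4 weeks 381 genes had an unadjusted p under 0.05 (1.10% of all genes higher and 0.813% lower in MPTP), none of them a subunit. At 1 week 842 genes had one, among them 2 subunits, Psmb1 and Psmc1, both higher in MPTP, where 1.87% of all genes had an unadjusted p under 0.05 and a higher signal. The count of 2 at 1 week was 0 without saline 1 week array 2, without either saline 4 weeks array (which enter only through the shared spread), without the 2 arrays that stand apart, with the compared groups alone, and after quantile or cyclic loess normalization. Over both times 950 genes had one, among them 2 subunits, Psma4 and Psmb3, both higher in MPTP, against 2.30% of all genes. Over the alternatives this second count ran from 0, without saline 1 week array 2, saline 4 weeks array 2, MPTP 4 weeks array 1 or the 2 arrays that stand apart, to 7 with another variance model.

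The share of subunits above 0 was 80.6% at 4 weeks, against 51.8% of all genes and 37.6% of the genes above percentile 75. The medians of these backgrounds were 0.0043 and -0.03. At 1 week the share was again 80.6%, against 46.9% of all genes and 58.5% of the bright genes, whose medians were -0.0081 and 0.02. Over both times 27 of 31 subunits (87.1%) were above 0 with a median of 0.08, against 49.0% of all genes and 48.3% of the bright genes. The subunits thus stood above the bright genes in each of these counts, which describe the list and carry no test. At 1 week the gap between the medians varied with the arrays kept. Without the 2 arrays that stand apart, which leaves 1 array per group, the medians of subunits and bright genes were close, at 0.048 and 0.044. Without MPTP 1 week array 1 alone they were 0.066 and -0.0042. Without saline 1 week array 2 alone they were 0.081 and 0.066.

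Groups of 2 arrays without overlap were counted too. At 4 weeks 7 subunits were higher in both MPTP arrays than in both saline arrays (22.6%, against 17.4% of all genes and 10.1% of the bright genes), and 2 were lower (6.45%, against 17.9% of all genes and 29.6% of the bright genes). The 7 were Psma2, Psma3, Psma4, Psmb3, Psmb4, Psmd6 and Psmd12, and the 2 were Psmd1 and Psmd11. At 1 week 16 subunits were higher without overlap (51.6%, against 12.5% of all genes and 20.0% of the bright genes), and 3 were lower (9.68%, against 13.8% of all genes and 10.8% of the bright genes), Psmb7, Psmc2 and Psmd1. Over both times, with 4 arrays against 4, Psmb3 was higher without overlap, 1 of 31 (3.23%, against 1.01% of all genes). Among the comparisons of MPTP with saline, the one at 1 week thus had the most subunits without overlap, and it involves the arrays that stand apart.

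Of the 31 subunits, 22 (71.0%) were above 0 at both times, against 26.8% of all genes and 28.7% of the bright genes. They were all 7 alpha subunits, 5 of 7 beta subunits, 4 of 6 ATPases and 6 of 11 non-ATPase subunits. Psmc4, Psmd1 and Psmd3 were below 0 at both times. Psmb2, Psmb7 and Psmc2 were below 0 at 1 week only, and Psmd4, Psmd7 and Psmd11 at 4 weeks only. The 2 effects come from different arrays, but the same members were looked at in both, and whether the classes differ was not tested.

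**Figure D1:**
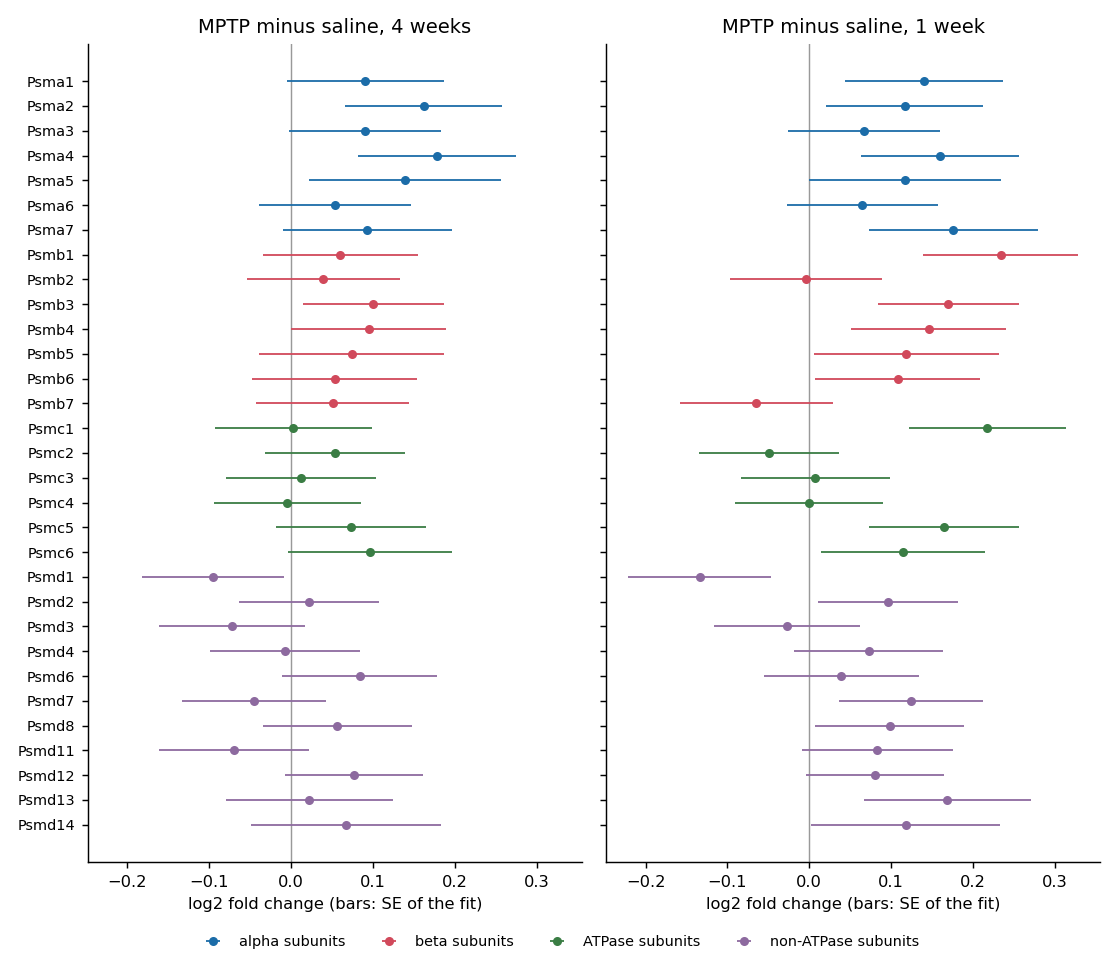
Log2 fold changes of the 31 subunits, MPTP minus saline, at 4 weeks (left) and 1 week (right), with bars for the standard error of the limma fit and colours for the class. The alpha subunits are right of 0 in both panels, and Psmd1 is left of 0 in both.

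Single arrays carried much of the size of these medians. At 4 weeks the median was 0.01 without MPTP array 1, with 19 subunits above 0, and 0.01 without saline array 2, with 18 above 0, while it was 0.11 without MPTP array 2 or without saline array 1. At 1 week the median was 0.07 without MPTP array 1. When both arrays that stand apart were left out it was 0.05 with 21 subunits above 0, against 0.04 for the bright genes. Over both times the same omission left a median of 0.05 with 25 above 0, against -0.0049 for the bright genes. The median stayed above 0 each time an array was left out in these 3 comparisons.

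The position of each array shows this. For each array, the deviation of every subunit from its own mean over the 8 arrays was taken, and the median over the 31 subunits was formed. It was 0.0082 and -0.08 in MPTP arrays 1 and 2 at 4 weeks, against -0.05 and -0.14 in saline arrays 1 and 2. At 1 week it was 0.12 and 0.08 in MPTP arrays, against 0.05 and -0.02 in saline arrays. The 2 treatments overlapped at 4 weeks, since MPTP array 2 was below saline array 1, and did not overlap at 1 week.

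The same medians over the bright genes were -0.04 and -0.05 in MPTP arrays at 4 weeks, against -0.0063 and -0.04 in saline arrays. At 1 week they were 0.07 and 0.02 in MPTP arrays, against -0.02 and 0.07 in saline arrays. Subunits and bright genes thus moved apart most in saline 4 weeks array 2 and in saline 1 week array 2, where the subunits were low. Saline 4 weeks array 2 had the lowest value of 21 of the 31 subunits, and MPTP 1 week arrays 1 and 2 had the highest value of 15 and 9. No subunit had its highest value at 4 weeks.

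**Figure D2:**
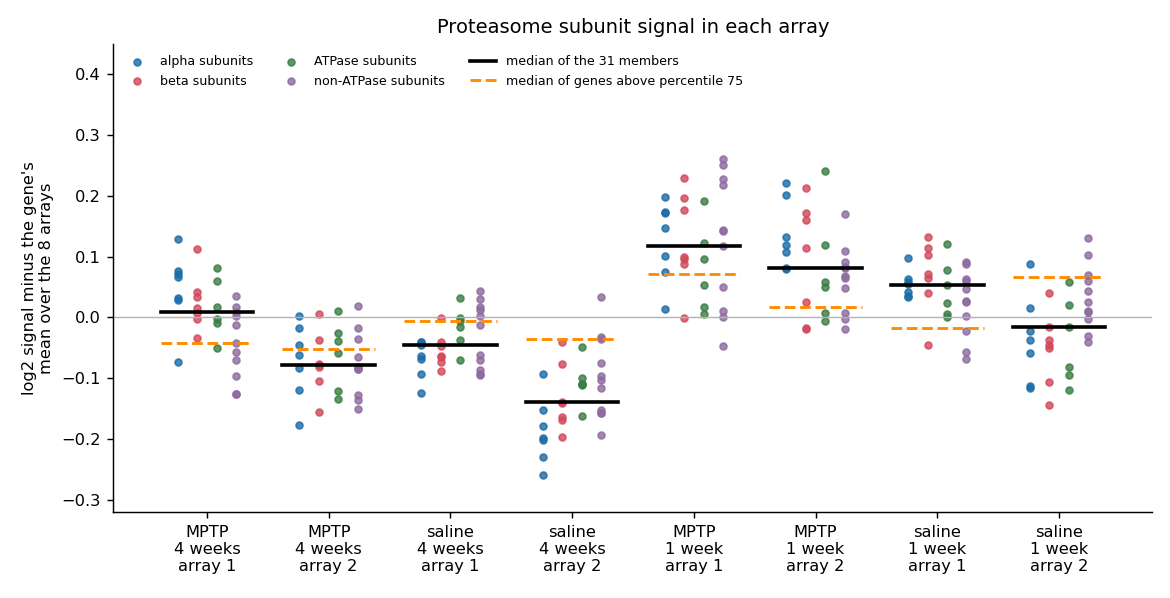
Deviation of each subunit's log2 signal from its mean over the 8 arrays, by array, with 1 point per subunit, a black line for the median of the 31 subunits and a dashed line for the median of the genes above percentile 75. The subunit medians run from -0.14 in saline 4 weeks array 2 to 0.12 in MPTP 1 week array 1.

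The alpha ring gates the core. All 7 of its genes were above 0 at 4 weeks (median 0.09, lowest 0.05, highest 0.18) and all 7 at 1 week (median 0.12, lowest 0.06, highest 0.18). Over both times the median was 0.13. At 4 weeks 3 of the 7 were higher without overlap (42.9%, against 17.4% of all genes and 10.1% of the bright genes), and at 1 week 5 were (71.4%, against 12.5% and 20.0%). Leaving out 1 array at a time kept the median between 0.03 and 0.17 at 4 weeks, and it was 0.05 at 1 week without the arrays that stand apart.

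Psma4, an alpha subunit, had the smallest p of its class at 4 weeks and over both times. Its signal at 4 weeks was 10.09 and 10.06 in MPTP arrays, against 9.93 and 9.86 in saline arrays. The 1 week values of Psma4 were 10.23 and 10.19 in MPTP arrays, against 10.16 and 9.95 in saline arrays. Both MPTP arrays were above both saline arrays at each time, but the 1 week difference was 0.03 without the 2 arrays that stand apart. The log2 fold change was 0.18 ± 0.10 at 4 weeks (SE of the limma fit, unadjusted p = 0.0949), a linear fold of 1.13, and 0.16 ± 0.10 at 1 week (unadjusted p = 0.129). Over both times it was 0.17 ± 0.06 (unadjusted p = 0.0222, adjusted p = 0.973).

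Psma7, another alpha subunit, had the smallest p of its class at 1 week. Its signal at 1 week was 9.64 and 9.77 in MPTP arrays, against 9.61 and 9.45 in saline arrays, with no overlap and a log2 fold change of 0.18 ± 0.10 (limma, unadjusted p = 0.120). At 4 weeks it was 9.64 and 9.49 in MPTP arrays, against 9.53 and 9.42 in saline arrays, which overlap, and the log2 fold change was 0.09 ± 0.10. The difference of the effects, 4 weeks minus 1 week, was -0.08 ± 0.15 and did not pass. The remaining alpha genes, Psma1, Psma2, Psma3, Psma5 and Psma6, lay between 0.05 (Psma6) and 0.16 (Psma2) at 4 weeks and between 0.06 (Psma6) and 0.14 (Psma1) at 1 week.

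Some genes of this class have other probe sets. Psma3 has 3 probe sets, with log2 fold changes of 0.09, 0.13 and 0.13 at 4 weeks and 0.07, 0.04 and 0.10 at 1 week. Psma5 has 2, at 0.14 and 0.02 at 4 weeks and 0.12 and 0.08 at 1 week, of which the second is the dimmer. All of them are above 0. Whether any probe set of Psma3, Psma5, Psmb3, Psmc1 or Psmd2 also reads processed pseudogenes was not tested, which limits what the second values given here and below mean.

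The beta ring contains the proteolytic sites. All 7 genes were above 0 at 4 weeks (median 0.06, lowest 0.04, highest 0.10), and 5 of 7 at 1 week (median 0.12, lowest -0.07, highest 0.23). Over both times 6 were above 0 with a median of 0.10. Without MPTP array 1 the median at 4 weeks was -0.01, and without the arrays that stand apart the median at 1 week was -0.02. At 1 week it stayed above 0 when 1 array was left out, with a lowest value of 0.02 without saline array 2.

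Of the catalytic subunits, Psmb5 (chymotrypsin-like activity) had 9.25 and 9.06 in MPTP arrays at 4 weeks, against 9.06 and 9.09 in saline arrays. At 1 week it had 9.31 and 9.12 in MPTP arrays, against 9.20 and 8.99 in saline arrays. The groups overlap at both times, and the log2 fold changes were 0.07 ± 0.11 at 4 weeks and 0.12 ± 0.11 at 1 week.

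Psmb6 (caspase-like activity) had 9.38 and 9.22 in MPTP arrays at 4 weeks, against 9.29 and 9.21 in saline arrays. The 1 week values of Psmb6 were 9.57 and 9.49 in MPTP arrays, against 9.51 and 9.34 in saline arrays. These overlap as well, with log2 fold changes of 0.05 ± 0.10 at 4 weeks and 0.11 ± 0.10 at 1 week. Psmb5 and Psmb6 are the genes with the TGACNNNGC matches nearest to the start. Psmc6 and Psmd12, the others with a match, stood at 0.10 and 0.08 at 4 weeks, against a median of 0.06 over all subunits. At 1 week Psmc6 and Psmd12 stood at 0.11 and 0.08, against a median of 0.11.

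Psmb7 (trypsin-like activity) had 10.62 and 10.50 in MPTP arrays at 4 weeks, against 10.58 and 10.44 in saline arrays. At 1 week it had 10.58 and 10.61 in MPTP arrays, against 10.70 and 10.62 in saline arrays. The MPTP arrays overlap the saline arrays at 4 weeks and lie below them at 1 week. The log2 fold changes were 0.05 ± 0.09 at 4 weeks and -0.07 ± 0.09 at 1 week, and the difference of the effects was 0.12 ± 0.13 (limma, unadjusted p = 0.400). Of the 3 catalytic genes Psmb7 thus had the opposite sign at 1 week, within the error of the fit.

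Psmb1, a beta subunit without a proteolytic site, had the largest difference of all subunits at 1 week. Its signal was 8.90 and 8.84 in MPTP arrays, against 8.71 and 8.56 in saline arrays, and both MPTP arrays were higher. Without the 2 arrays that stand apart the difference was 0.13. The log2 fold change was 0.23 ± 0.09 (limma, unadjusted p = 0.0335, adjusted p = 1.00), a linear fold of 1.18. At 4 weeks the signal was 8.67 and 8.57 in MPTP arrays, against 8.61 and 8.51 in saline arrays, with overlap and a log2 fold change of 0.06 ± 0.09. The effect at 4 weeks minus that at 1 week was -0.17 ± 0.13, which did not pass.

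Psmb3, likewise without a proteolytic site, was the subunit whose 4 MPTP arrays were all above its 4 saline arrays. At 4 weeks its signal was 8.40 and 8.39 in MPTP arrays, against 8.34 and 8.24 in saline arrays. The 1 week values of Psmb3 were 8.47 and 8.54 in MPTP arrays, against 8.33 and 8.33 in saline arrays. The gap was narrow, 8.39 against 8.34 between the nearest arrays. The log2 fold change over both times was 0.14 ± 0.06 (limma, unadjusted p = 0.0373, adjusted p = 0.973), with 0.10 ± 0.09 at 4 weeks and 0.17 ± 0.09 at 1 week. A second, dimmer probe set of Psmb3 gave 0.07 ± 0.10 at 4 weeks and 0.33 ± 0.10 at 1 week. The other beta genes, Psmb2 and Psmb4, stood at 0.04 and 0.10 at 4 weeks and at -0.0044 and 0.15 at 1 week.

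The ATPase ring, which unfolds substrates and opens the gate of the core, had smaller medians, 0.03 at 4 weeks with 5 of 6 above 0, and 0.06 at 1 week with 4 of 6 above 0. Over both times the median was 0.06. Without saline array 2 the median at 4 weeks was -0.01, and without the 2 arrays that stand apart the median at 1 week was -0.00047. At 1 week the ATPases differed in sign and in overlap, and whether they differ from each other was not tested. Psmc1, Psmc5 and Psmc6 stood at 0.22, 0.16 and 0.11, higher without overlap (50% of the ring, against 12.5% of all genes and 20.0% of the bright genes). Psmc2 stood at -0.05, lower without overlap (16.7%, against 13.8% of all genes and 10.8% of the bright genes). Psmc3 and Psmc4 stood at 0.01 and -0.00026, with overlap.

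Psmc1 had 8.59 and 8.71 in MPTP arrays at 1 week, against 8.49 and 8.37 in saline arrays. At 4 weeks it had 8.46 and 8.33 in MPTP arrays, against 8.43 and 8.35 in saline arrays. The MPTP arrays were higher at 1 week and enclosed the saline arrays at 4 weeks. The log2 fold change was 0.22 ± 0.10 at 1 week (limma, unadjusted p = 0.0471, adjusted p = 1.00) and 0.0031 ± 0.10 at 4 weeks. The effect at 4 weeks minus that at 1 week was -0.21 ± 0.14 (limma, unadjusted p = 0.145), the smallest p among subunits for this difference. A second probe set of Psmc1 gave 0.08 ± 0.11 at 4 weeks and 0.33 ± 0.11 at 1 week.

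Psmc5 had 9.92 and 9.82 in MPTP arrays at 4 weeks, against 9.84 and 9.75 in saline arrays. At 1 week it had 9.95 and 9.98 in MPTP arrays, against 9.86 and 9.74 in saline arrays. The treatments overlap at 4 weeks and do not at 1 week, and over both times the log2 fold change was 0.12 ± 0.06 (limma, unadjusted p = 0.0807). Psmc6 had 9.41 and 9.21 in MPTP arrays at 4 weeks, against 9.26 and 9.16 in saline arrays, with overlap and a log2 fold change of 0.10 ± 0.10. At 1 week Psmc6 had 9.52 and 9.39 in MPTP arrays, against 9.33 and 9.35 in saline arrays.

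The non-ATPase subunits lay on both sides of 0 at each time. At 4 weeks 6 of 11 were above 0 with a median of 0.02, and the range ran from -0.10 (Psmd1) to 0.08 (Psmd6). At 1 week 9 of 11 were above 0 with a median of 0.08, and the range ran from -0.13 (Psmd1) to 0.17 (Psmd13). Over both times 9 were above 0 with a median of 0.06. At 4 weeks the median was -0.02 without saline array 2 and -0.0073 with the mean of each gene's probe sets. Set beside the regulatory particle as a whole, the core had 14 of 14 genes above 0 at 4 weeks, against 11 of 17 in the regulatory particle, and 12 of 14 at 1 week, against 13 of 17.

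Psmd1, a large scaffold subunit of the base, was lower in MPTP retinas at both times. At 4 weeks its signal was 9.61 and 9.51 in MPTP arrays, against 9.69 and 9.62 in saline arrays. The 1 week values of Psmd1 were 9.60 and 9.65 in MPTP arrays, against 9.74 and 9.78 in saline arrays. The MPTP arrays were below the saline arrays of their own time. The log2 fold change was -0.10 ± 0.09 at 4 weeks, -0.13 ± 0.09 at 1 week and -0.11 ± 0.06 over both times (limma, unadjusted p = 0.0701, adjusted p = 0.973), the lowest among subunits in each. Psmd2, the other large scaffold of the base, stood at 0.02 ± 0.09 at 4 weeks and 0.10 ± 0.09 at 1 week, while a second probe set of it gave -0.13 ± 0.10 and -0.02 ± 0.10, so the 2 probe sets of Psmd2 differ in sign.

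Psmd13, a lid subunit whose probe set had the lowest mean signal of the 31, had 7.18 and 7.02 in MPTP arrays at 4 weeks, against 7.10 and 7.05 in saline arrays. At 1 week it had 7.43 and 7.23 in MPTP arrays, against 7.19 and 7.13 in saline arrays. The arrays overlap at 4 weeks and do not at 1 week, where the log2 fold change was 0.17 ± 0.10 (limma, unadjusted p = 0.130), and the highest value was in an array that stands apart. Psmd7, the lid partner of the deubiquitinase, had 8.61 and 8.59 in MPTP arrays at 4 weeks, against 8.71 and 8.58 in saline arrays. At 1 week Psmd7 had 8.82 and 8.77 in MPTP arrays, against 8.66 and 8.69 in saline arrays. Its log2 fold changes were -0.05 ± 0.09 at 4 weeks and 0.12 ± 0.09 at 1 week, with a difference of -0.17 ± 0.12.

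Psmd14, the deubiquitinase of the lid, stood at 0.07 ± 0.12 at 4 weeks and 0.12 ± 0.12 at 1 week. Psmd4, a receptor for ubiquitin chains, stood at -0.01 ± 0.09 at 4 weeks and 0.07 ± 0.09 at 1 week. The lid subunits Psmd3, Psmd6, Psmd8, Psmd11 and Psmd12 lay between -0.07 and 0.08 at 4 weeks and between -0.03 and 0.10 at 1 week, and Psmd12 was higher in MPTP without overlap at both times, at 0.08 ± 0.08 each. None of these 7 had an unadjusted p under 0.05 for MPTP minus saline.

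**Figure D3:**
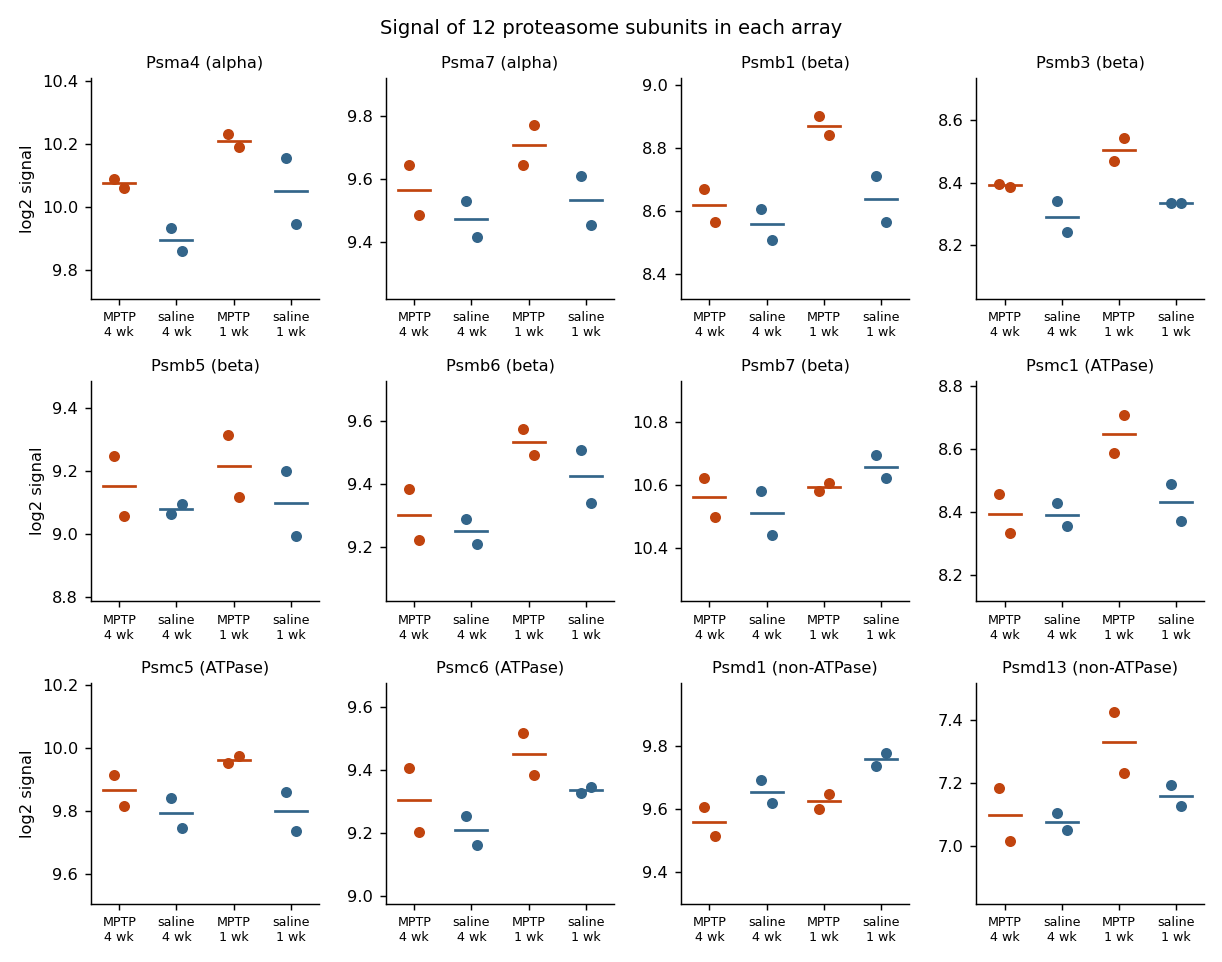
Log2 signal of 12 subunits in each array, MPTP left of saline at each time, with 1 point per array and a line for the mean of the 2 arrays. Axes span the same width in every panel, and Psmb3 is the panel in which all MPTP points lie above all saline points.

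The early and late effects were set against each other directly. The effect at 4 weeks minus the effect at 1 week was below 0 for 21 of 31 subunits (67.7%). The same held for 47.8% of all genes and 69.4% of the bright genes. The subunit median was -0.04, against 0.0079 for all genes and -0.05 for the bright genes. No subunit had an unadjusted p under 0.05, and 0 of 19938 genes (0%) passed the adjusted threshold by limma, with 391 at an unadjusted p under 0.05 (1.42% of all genes above 0 and 0.537% below). The subunits thus differed between the times about as much as bright genes did, and the median took the other sign, 0.0081, after quantile normalization.

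Between the times, signals of the subunits were lower at 4 weeks than at 1 week. In MPTP retinas all 31 were below 0 with a median of -0.14, against 46.7% of all genes and 84.8% of the bright genes, whose median was -0.10. In saline retinas 30 of 31 were below 0 with a median of -0.10 and 1 was above 0, against 49.4% of all genes below and 50.6% above. Of the bright genes 72.8% were below 0, with a median of -0.05. The 8 photoreceptor markers moved the same way, with lower means in the 4 arrays at 4 weeks (10.79 to 10.87) than in the 4 arrays at 1 week (10.89 to 11.01), and their part in this was not tested. Without saline 1 week array 1, or without saline 4 weeks array 2, the saline median was -0.06. Here 0 genes (0%) passed by limma, with 1952 in MPTP and 424 in saline at an unadjusted p under 0.05.

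In MPTP retinas 19 subunits were lower at 4 weeks without overlap (61.3%, against 21.5% of all genes and 48.2% of the bright genes). In saline retinas 18 were (58.1%, against 15.1% of all genes and 28.4% of the bright genes). At an unadjusted p under 0.05, 7 subunits were lower in MPTP, against 4.36% of all genes, and none in saline, against 1.25%. Those 7 were Psmb1, Psmb6, Psmc1, Psmd4, Psmd7, Psmd8 and Psmd13, and after quantile or cyclic loess normalization 1 subunit was at that level. Without MPTP 4 weeks array 2 the count was 0, and without 1 of the MPTP 1 week or saline 4 weeks arrays it was 2 to 4, while it was 12 with array medians centred. The difference between the treatments in this change is the same quantity as the difference of the effects above.

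Psmb1, at -0.25 ± 0.09 (limma, unadjusted p = 0.0233, adjusted p = 0.507), and Psmd4, at -0.24 ± 0.09 (unadjusted p = 0.0245), had the smallest p in MPTP. Psmd4 had 7.80 and 7.85 in MPTP arrays at 4 weeks, against 8.16 and 7.98 at 1 week. In saline the smallest p were those of Psmd12, at -0.17 ± 0.08 (limma, unadjusted p = 0.0732, adjusted p = 1.00), and Psma6, at -0.18 ± 0.09 (unadjusted p = 0.0762). Psmd12 had 9.37 and 9.31 in saline arrays at 4 weeks, against 9.51 and 9.50 at 1 week. Psma6 had 9.53 and 9.37 in saline arrays at 4 weeks, against 9.60 and 9.66 at 1 week. In each of these the later arrays were below the earlier ones.

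By class, the medians of 4 weeks minus 1 week in MPTP were -0.14 for alpha, -0.11 for beta, -0.10 for ATPase and -0.17 for non-ATPase subunits. In saline they were -0.15 for alpha, -0.10 for beta, -0.07 for ATPase and -0.09 for non-ATPase subunits. The classes had the same direction in both treatments, and differences among them were not tested.

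The scaling of the arrays bears on these values, since the spread of signal differed between arrays. The interquartile range of log2 signal was 1.90 in saline 1 week array 2 and 1.92 in MPTP 1 week array 1, against 1.65 to 1.74 in the others. After quantile normalization the subunit median was 0.08 at 4 weeks and 0.07 at 1 week, and after cyclic loess normalization it was 0.08 at both times, while the medians of the bright genes lay between -0.0084 and -0.0050. The MPTP medians of the subunits therefore kept their sign and became nearly equal at the 2 times. The change between times shrank to -0.04 in MPTP and -0.06 in saline with quantile normalization, with 9 subunits above 0 in each.

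**Figure D4:**
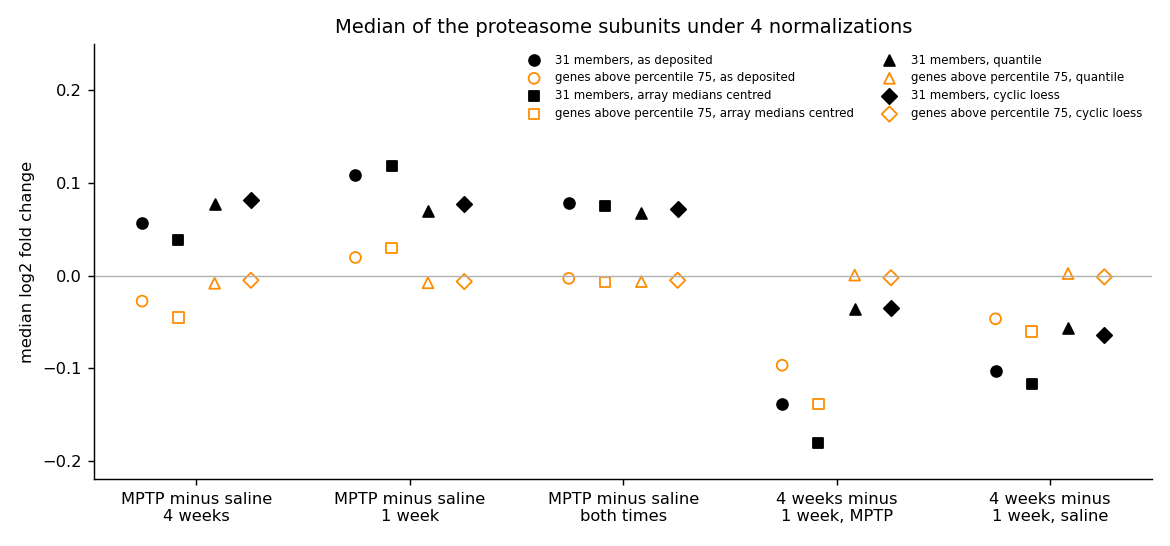
Median log2 fold change of the 31 subunits (filled) and of the genes above percentile 75 (open) with the deposited values, with each array centred on its median, and after quantile and cyclic loess normalization. The subunits stay between 0.04 and 0.12 in the MPTP comparisons under the 4 scalings, and the change between the times moves towards 0 after quantile and cyclic loess normalization.

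Genes that build, activate or serve the proteasome did not pass either. The immunoproteasome and tissue variants are subunits that replace constitutive ones in immune cells, thymus or testis. Of 5 measured, 3 were above 0 at 4 weeks (median 0.04) and 2 at 1 week (median -0.03). Psmb8, which replaces Psmb5 in cells exposed to interferon, had 6.48 and 6.40 in MPTP arrays at 4 weeks, against 6.34 and 6.17 in saline arrays, with a log2 fold change of 0.18 ± 0.10, and stood at -0.03 ± 0.10 at 1 week. Psmb9 stood at 0.11 ± 0.09 and Psmb10 at -0.09 ± 0.09 at 1 week, and the germ cell subunit Psma8, which was dim, at 0.12 ± 0.13 at 4 weeks. The immune variants thus showed no common direction.

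Of the 5 activators and inhibitor, 3 were above 0 at each time, with medians of 0.00051 at 4 weeks and 0.10 at 1 week. Psme1, a subunit of the 11S activator, had 9.75 and 9.58 in MPTP arrays at 4 weeks, against 9.52 and 9.44 in saline arrays, and stood at 0.18 ± 0.11 at 4 weeks and 0.15 ± 0.07 over both times (limma, unadjusted p = 0.0671). Psme2, its partner, stood at -0.06 ± 0.09 at 4 weeks and 0.10 ± 0.09 at 1 week. Psme3, the nuclear activator, stood at 0.09 ± 0.09 at 4 weeks and 0.11 ± 0.09 at 1 week, without overlap at either time.

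Of 8 assembly chaperones measured of 9 listed, 6 were above 0 at each time, with medians of 0.07 at 4 weeks and 0.03 at 1 week. Psmg2, which pairs with Psmg1 to build the alpha ring, had 8.10 and 8.11 in MPTP arrays at 1 week, against 7.84 and 7.87 in saline arrays. The log2 fold change was 0.26 ± 0.09 at 1 week (limma, unadjusted p = 0.0169, adjusted p = 1.00), 0.12 ± 0.09 at 4 weeks and 0.19 ± 0.06 over both times (unadjusted p = 0.0123). Psmg2 was higher in MPTP without overlap within each time. Psmg1 stood at 0.12 ± 0.09 at 4 weeks and 0.10 ± 0.09 at 1 week. Pomp, which drives maturation of the beta ring, stood at 0.15 ± 0.09 at 4 weeks and 0.02 ± 0.09 at 1 week.

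Psmd5, a chaperone of the ATPase ring, was the lowest chaperone at 4 weeks and the only chaperone below 0 over both times. It had 7.58 and 7.49 in MPTP arrays at 4 weeks, against 7.83 and 7.78 in saline arrays. The 1 week values of Psmd5 were 7.90 and 7.82 in MPTP arrays, against 7.83 and 7.92 in saline arrays. The MPTP arrays at 4 weeks were the lowest of the 8, and the log2 fold change was -0.28 ± 0.09 at 4 weeks (limma, unadjusted p = 0.0114, adjusted p = 1.00) and -0.01 ± 0.09 at 1 week. The difference of the effects was -0.26 ± 0.13 (unadjusted p = 0.0637), which did not pass.

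Of 8 measured receptors, deubiquitinases and shuttles of 12 names listed, 5 were above 0 at 4 weeks (median 0.04) and 6 at 1 week (median 0.10). The ubiquilins, shuttles that carry ubiquitylated proteins to the proteasome, did not share a sign. Ubqln1 had 8.47 and 8.71 in MPTP arrays at 4 weeks, against 8.77 and 8.83 in saline arrays, and 8.71 and 8.70 in MPTP arrays at 1 week, against 8.81 and 8.93 in saline arrays. All 4 MPTP arrays were below all 4 saline arrays, which 1.49% of all genes showed, and the log2 fold change over both times was -0.19 ± 0.07 (limma, unadjusted p = 0.0187, adjusted p = 0.973). Ubqln2 had 9.18 and 9.50 in MPTP arrays at 1 week, against 9.12 and 9.10 in saline arrays, and stood at 0.23 ± 0.11 at 1 week, 0.06 ± 0.11 at 4 weeks and 0.15 ± 0.08 over both times, with most of the early difference in MPTP array 2. Ubqln4, named after its values were seen, had 7.27 and 7.23 in MPTP arrays at 4 weeks, against 7.15 and 7.22 in saline arrays, and 7.29 and 7.25 in MPTP arrays at 1 week, against 7.13 and 7.17 in saline arrays. All 4 MPTP arrays of Ubqln4 were above all 4 saline arrays, which 1.01% of all genes showed, with a log2 fold change over both times of 0.09 ± 0.06 (limma, unadjusted p = 0.126, adjusted p = 0.973). Ube3c, a ubiquitin ligase bound to the proteasome, stood at -0.13 ± 0.11 at 4 weeks.

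Of the 7 transcription factors known to act on proteasome genes, 4 were above 0 at 4 weeks (median 0.02) and 3 at 1 week (median -0.03). Nfe2l1 stood at 0.02 ± 0.10 at 4 weeks and 0.10 ± 0.10 at 1 week, and its activity is known to be set largely after translation. Nfe2l2 stood at 0.09 ± 0.12 at 4 weeks and 0.14 ± 0.12 at 1 week, with 8.98 and 8.65 in MPTP arrays at 1 week, against 8.63 and 8.71 in saline arrays. Nfyc, a subunit of the CCAAT-binding factor, stood at -0.13 ± 0.09 at 4 weeks. None of the 7 had an unadjusted p under 0.05 in an MPTP comparison.

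The 4 measured genes of the Vcp complex, of 5 names listed, were below 0 at both times, with medians of -0.04 at 4 weeks and -0.08 at 1 week. So were 5588 of the 19938 genes fitted and 1627 of the 4985 bright genes. Vcp, the ATPase that pulls ubiquitylated proteins out of membranes and complexes upstream of the proteasome, had 9.57 and 9.43 in MPTP arrays at 4 weeks, against 9.63 and 9.64 in saline arrays. It stood at -0.14 ± 0.11 at 4 weeks and -0.12 ± 0.11 at 1 week, and its cofactor Nploc4 at -0.06 ± 0.11 and -0.12 ± 0.11. Uba6, the one measured gene of the ubiquitin and activating enzyme list, stood at 0.05 ± 0.09 at 4 weeks and 0.07 ± 0.09 at 1 week. In none of these lists did a gene pass the adjusted threshold.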

How the data were processed

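Total RNA (100 ng per array) from pools of 4 retinas was amplified and labelled with biotin, and 8 arrays were measured. The deposited log2 values come from RMA in Affymetrix Expression Console, which normalizes across arrays, per the submitters' processing notes. Of this step, versions and background settings were not given in the sources used here, nor were scan dates. Arrays have no read depth, and their number limits the precision. Of 28944 probe sets, 21789 name 1 gene; those with several genes (1621) or none (5534) were left out. For the 999 genes with several probe sets the one with the highest mean was kept, without a filter on dim genes.

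Each gene was fitted with limma 3.58.1 in R 4.3.3, two-sided, with a mean per group (4 residual degrees of freedom), or with time and treatment as additive terms for both times together (5 residual degrees of freedom). Adjusted p-values (Benjamini-Hochberg) cover every gene fitted, and a gene passed under 0.05. A difference is a log2 fold change ± SE. The subunits, the related lists and the alternatives were chosen with earlier results of these data known, so no list has a p of its own. Values in every array are given for the subunit with the smallest p of its class in each MPTP comparison, the catalytic subunits, the lowest subunit, and the 2 smallest p in each time comparison, and the 2 smallest p per related list are named. Of the related genes, those without a probe set of their own were not analysed here. The code was tested on simulated data. The labels do not say whether array numbers mark pairs or a shared batch. Deviations of same-numbered arrays correlated between -0.38 (saline and MPTP at 1 week) and 0.21, which cannot exclude either. Alternatives were quantile, cyclic loess and median scaling, filters on dim genes, other choices of probe set, another variance model, a fit of the compared groups alone, a block, and arrays left out. Figures were drawn with matplotlib 3.10.9.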

Additional observations from a re-analysis of the deposited data

Results flagged for a closer look

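In 2 of 62 groups of 4 arrays tested, 1 array lay far from the other 3. Its gap over the whole range was above Dixon's critical value for 4 values. Chance passes that level in about 1 in 20 groups if the 4 values share 1 distribution. Each group joined both times, and most subunits were lower at 4 weeks, so this rate need not hold here. Both flagged arrays were 4 weeks arrays with low values. Psmd3, a lid subunit, had a ratio of 0.878 among the 4 MPTP arrays of both times, with 7.55 in MPTP 4 weeks array 1, against 7.68, 7.69 and 7.70 in the other 3. Psmb3, a beta subunit, had a ratio of 0.943 among the 4 saline arrays of both times, with 8.24 in saline 4 weeks array 2, against 8.33, 8.33 and 8.34 in the other 3. Saline 4 weeks array 2 also had the lowest value of 21 of the 31 subunits.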

How the results depend on the processing

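With 2 arrays per group the precision is limited by their number, and a miss of the threshold does not show that subunits were unaffected. Of the values that answer a comparison, 333 stayed within the spread between arrays or within 1.5 times, 8 moved and 4 reversed; among the other values 1431 were close, 75 moved and 27 reversed. Many of these values could not move. Another variance model, a block, or the loss of an array outside the compared groups leaves a fold change as it was. The subunit median counted as close within 0.05. Its fall at 4 weeks from 0.06 to 0.01 without MPTP array 1 therefore counted as close. The cause of the moves was not tested.

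Without the 2 arrays that stand apart, the 1 week medians were 0.048 (all subunits), -0.018 (beta) and -0.00047 (ATPase), with Psmb5 at -0.084 and Psmb6 at -0.018, and Psmb7 over both times was 0.0045. The difference of the effects had medians of 0.0092 (all, 13 subunits below 0), 0.072 (beta) and 0.052 (ATPase), and 1 gene was called for 4 weeks minus 1 week in MPTP. After quantile normalization the difference of the effects had a median of 0.0081 with 13 below 0, and after cyclic loess 0.011 with 11 below 0, while the change between times in MPTP had medians of -0.036 and -0.034. With array medians centred, Psmc1 at 4 weeks was -0.015.

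Leaving out 1 array at a time, the lowest and highest medians were 0.011 and 0.11 at 4 weeks, 0.066 and 0.12 at 1 week, 0.058 and 0.10 over both times, -0.077 and 0.015 for the difference of the effects (15 to 25 subunits below 0), -0.18 and -0.10 between times in MPTP and -0.15 and -0.060 in saline. Genes called stayed at 0, except 1 between times in MPTP without MPTP 1 week array 1. At 4 weeks the ranges were -0.010 and 0.11 for the beta median, -0.025 and 0.049 for the non-ATPase median, -0.021 and 0.17 for Psmb5, -0.028 and 0.14 for Psmb6, -0.019 and 0.12 for Psmb7, -0.060 and 0.066 for Psmc1, -0.0052 and 0.20 for Psmc6, -0.061 and 0.11 for Psmd13 and -0.11 and 0.018 for Psmd7. Psmb7 over both times ranged between -0.046 and 0.020, and the difference of the effects between -0.074 and 0.056 for alpha and -0.11 and 0.030 for beta.

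No label pairs the arrays beyond their numbers, so the block was an alternative. With the array number as a block, 0 genes were called and the genes at an unadjusted p under 0.05 were 304 at 4 weeks, 713 at 1 week and 880 over both times. With exchanged numbers (chosen after seeing the data) 1121 genes had one at 1 week. The fit of the compared groups alone could not be applied to the difference or to both times together.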

Other observations

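Of the related genes, some had lower signal at 4 weeks than at 1 week, as the subunits did. Among the bright genes, 84.8% in MPTP retinas and 72.8% in saline retinas were below 0. In MPTP retinas 4 of 5 immunoproteasome and tissue variants and 3 of 8 assembly chaperones were above 0. So were 2 of 5 activators and inhibitor and 2 of 7 transcription factors. Of the 8 receptors, deubiquitinases and shuttles and the 4 Vcp complex genes, 0 were above 0. Nfyb, a subunit of the CCAAT-binding factor, stood at -0.23 ± 0.09 between the times in MPTP retinas and at -0.25 ± 0.09 in saline retinas, without overlap in either (limma, unadjusted p = 0.0324 and 0.0242, adjusted p = 0.507 and 1.00). Psme3, the nuclear activator, stood at -0.22 ± 0.09 in MPTP retinas and at -0.19 ± 0.09 in saline retinas. Psmg2 stood at -0.27 ± 0.09 in MPTP retinas and at -0.13 ± 0.09 in saline retinas. Psmd5 stood at -0.33 ± 0.09 in MPTP retinas (unadjusted p = 0.00435, adjusted p = 0.507) and at -0.07 ± 0.09 in saline retinas. None of these passed the adjusted threshold, and the differences between the treatments in these changes did not pass for any gene fitted.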
